A study of Mus musculus with 9 samples.

Results

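Embryoid bodies at day 3 were compared with the undifferentiated mouse embryonic stem (ES) cells they came from, in 3 lines: wild type, PKm1KI and PKm2KI. The KI lines carry a knock-in of the M1 or M2 splice form of pyruvate kinase M, a glycolytic enzyme encoded by Pkm. Undifferentiated cells (day 0) were grown with LIF, the cytokine that holds mouse ES cells in self-renewal, and embryoid bodies were grown in floating culture without LIF for 3 days. The comparison was between 6 of the 9 arrays of the series, 3 of each day and 1 per line and day, chosen by their titles and paired by line. The other 3 arrays hold embryoid bodies of day 7, and they entered the filter and the fit that estimated the spread. Each genotype was 1 cell line, so the lines stand in for repeats, and a p-value takes in no more than the spread from array to array. LIF, the culture form and the days in culture changed together and cannot be told apart.

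ES cells kept with LIF occupy a naive pluripotent state, in which the receptor pair of Lifr and Il6st activates STAT3 and supports factors such as Klf4 and Tbx3. When LIF is withdrawn, cells pass through a formative state that resembles the epiblast of the embryo after implantation, before germ layer genes are expressed. Nodal, FGF and Wnt signals act during that transition, and cell metabolism is rebuilt with it.

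Values are Agilent processed signals scaled to the 75th percentile of each array, on a log2 scale. A change is day 3 minus day 0 from a limma fit to all 9 arrays, with its standard error (SE, n = 3 lines). The day 7 arrays thus share in each SE and p-value. A gene was called, and is said to have risen or fallen, at a Benjamini and Hochberg adjusted p under 0.05 over all genes tested. Of 15016 genes, 608 (4.05%) were called: 278 rose (1.85%) and 330 fell (2.2%). With the 6 arrays of days 0 and 3 alone, 1433 were called. Called or not, 56.8% of all genes had a higher mean at day 3, and the list counts below stand beside these shares. All 608 moved the same way in each of the 3 lines, and in 590 of them the arrays of the 2 days did not overlap, against 21.9% of all genes with every day 3 array higher and 14.3% with every one lower. The calls were made on these same arrays, paired by line, so both counts describe the calls and do not test them. The changes were large, since 584 exceeded 2-fold and 95 exceeded 8-fold. The median change was 1.51 among genes that rose, -2.03 among those that fell and 0.09 over all genes tested. The share of calls that were rises depended on the scaling, because scaling to detected probes put the median of all genes at -0.08: 192 genes then rose and 437 fell, against 560 and 369 with normexp background correction. It moved too with the slide as a block (204 and 374), with an intensity trend and robust moderation (578 and 430), and with a filter on all 6 arrays (367 and 278).

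**Figure D1:**
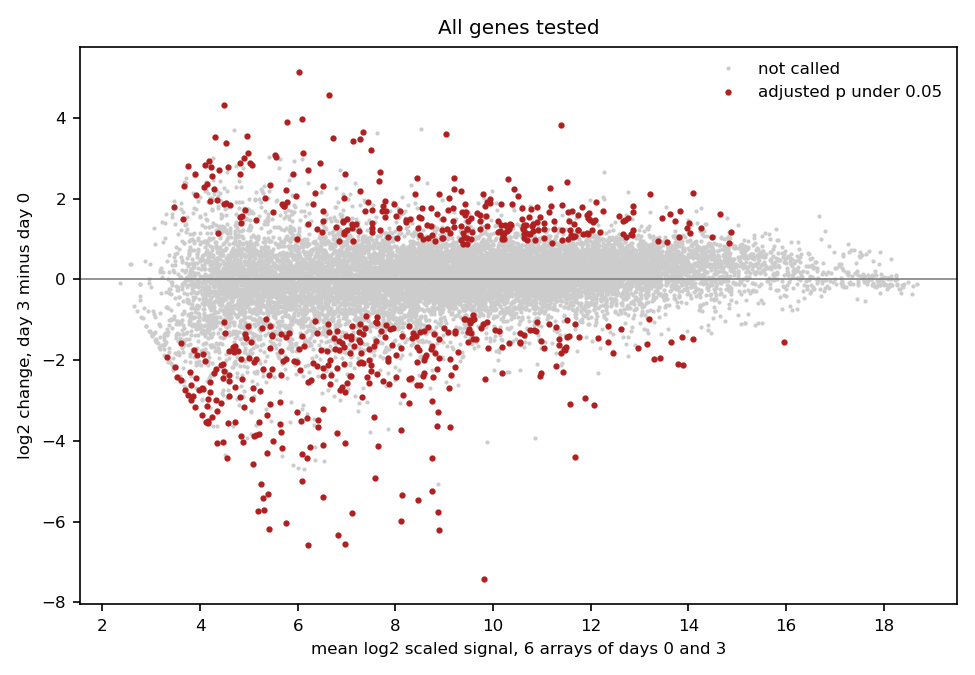
Change of every gene tested (vertical axis, log2, day 3 minus day 0) against its mean log2 scaled signal over the 6 arrays of days 0 and 3 (horizontal axis). The 608 called genes are in red, and the falls reach farther from 0 than the rises.

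Between 54.2% and 61.6% of the spots of the 9 arrays were well above background and 0 were saturated, and the arrays' number limits the precision, with a median SE of 0.26. Calls rested on single arrays. Leaving out the wild type or the PKm1KI line left 0 calls (1763 and 2430 genes at an unadjusted p under 0.05 in limma), and leaving out the PKm2KI line left 284. Without the wild type arrays of days 0, 3 and 7 there were 17, 9 and 163 calls, without those of PKm1KI 2, 5 and 880, and without those of PKm2KI 108, 133 and 1260. Of the genes described here, those still called included Bcl11a, Foxc2, Ccno, Cavin2 and Fbln5 without the wild type day 0 array, Foxc2 and Cavin2 without the wild type day 3 array, and Grem1 and Cavin2 without the PKm1KI day 3 array. Foxc2 and Cavin2 were at or near the floor of the scale at day 3, where values show little spread. None of the 131 called genes that the naming rule selected changed sign under any alternative that tested it, but sizes and calls moved. Part of this was fixed in advance. The slide block, no line block and the 6 arrays alone left each change as it was. All calls moved the same way in the 3 lines, so leaving out a line could not turn a sign. Of the 131 named calls, the fold of 79 moved by over 1.5 times with normexp and 14 lost the call. With a floor of 20 in place of 5 it was 42 and 8. Both PKm2KI arrays lay on slide 1, so the PKm2KI difference is the value within a slide. The wild type pair ran from slide 1 to slide 2 and the PKm1KI pair from slide 2 to slide 1, and adding the slide as a block left each change as it was but moved its p.

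The ES cell label was checked against its markers, and all 7 were well above background on all 6 arrays. Their summed scaled signal was 348008 to 434543 at day 0 and 348614 to 399092 at day 3. The brightest markers weigh most in these sums. Taken gene by gene, 3 markers were higher and 4 lower at day 3, with 0 called in limma. The median change was -0.31, and by line -0.08 in wild type, -0.69 in PKm1KI and -0.09 in PKm2KI. Of 5 macrophage markers tested, limma called 0 between the days, also at an unadjusted p under 0.05. This comparison does not show whether such cells were present. Of these markers 5, 5 and 4 were well above background at day 0 and 5, 4 and 4 at day 3 (wild type, PKm1KI and PKm2KI). Their summed signal was 11046 to 16847 at day 0 and 9609 to 9737 at day 3. The defining Ptprc and Tyrobp did not pass the filter on dim probes, and Cd68, Lyz2 and Cx3cr1 were not tested either. Fibroblast and feeder cell markers were also measured in these cultures and moved with the day: all 19 tested were lower at day 3, 6 of them called, with a median change of -2.69 (-1.11 with normexp background correction). Their summed signal went from 22631 to 3231 in wild type, from 21675 to 1766 in PKm1KI and from 7591 to 1525 in PKm2KI, with 18 to 19 markers well above background at day 0 and 12 to 16 at day 3. The part of these cells in the falls described here was not tested, and fewer cells of a type cannot be told apart from less RNA per cell. Pkm, read by 1 probe that cannot check the knock-in here, was at 13.64, 13.58 and 13.78 at day 0 and at 16.10, 14.72 and 14.30 at day 3 in wild type, PKm1KI and PKm2KI, a difference of 1.38 ± 0.36 that missed the threshold (adjusted p = 0.0822).

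**Figure D2:**
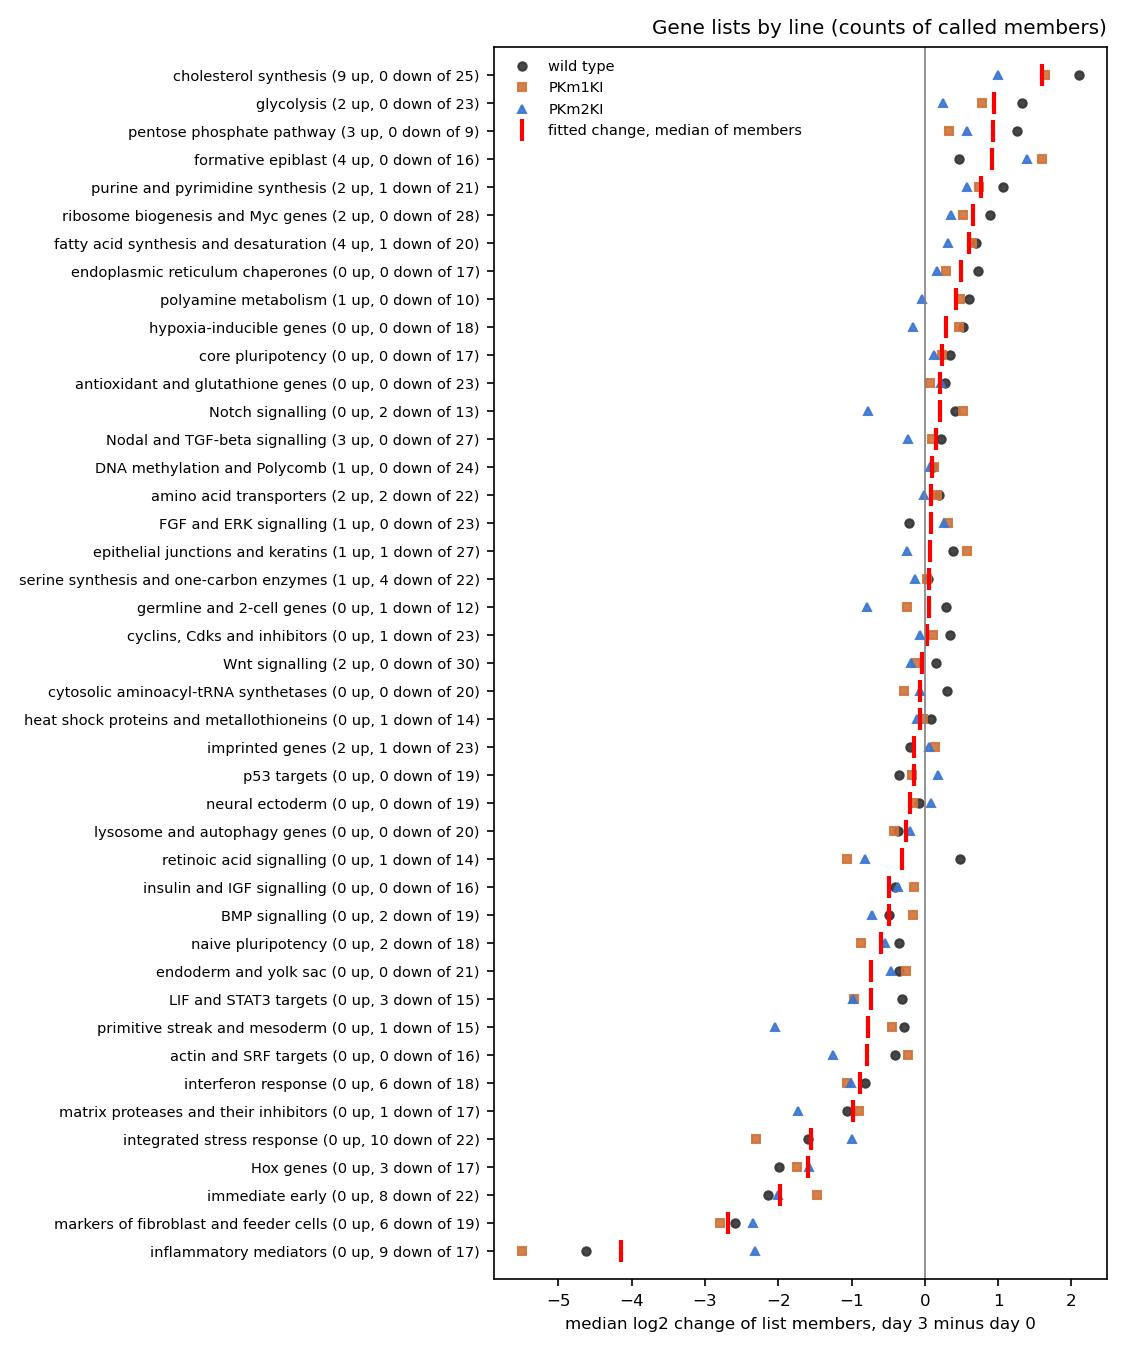
Median log2 change of the members of each gene list, day 3 minus day 0, in each line (symbols) and in the fit over all 9 arrays (red bar), with the number of called members beside each name. Cholesterol synthesis stands highest at 1.60 and inflammatory mediators lowest at -4.15 (-4.86 to -1.64 over the alternatives), and many lists near 0 have lines on both sides of it.

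Genes of the naive state were lower in part, while no general pluripotency factor passed the test. Of 18 naive pluripotency genes 14 were lower at day 3, but only Klf4 and Tbx3 fell (median -0.60), and of 17 core pluripotency genes 14 were higher with 0 called in limma (2 at an unadjusted p under 0.05, median 0.24). Of all genes tested, 56.8% were higher at day 3 and 2.2% fell. The naive list had line medians of -0.35 in wild type, the smallest, -0.86 in PKm1KI and -0.54 in PKm2KI. Klf4, a zinc finger factor under the control of STAT3, was at 15.17, 15.02 and 14.69 at day 0 in wild type, PKm1KI and PKm2KI, and at 13.30, 12.32 and 12.88 at day 3. All 3 arrays of day 3 were below those of day 0, a 4.37-fold fall (-2.13 ± 0.28, adjusted p = 0.0229). Tbx3, a T-box factor of the naive state, went from 14.54, 14.45 and 14.25 to 13.54, 12.13 and 12.95, in the same line order, a 2.91-fold fall (-1.54 ± 0.31, adjusted p = 0.0496). Utf1 and Lin28a, the core members with the smallest p, were at 0.64 ± 0.22 and 0.81 ± 0.28 (adjusted p = 0.131 and 0.140). Nanog, a naive factor, was at 6.99, 7.80 and 7.53 at day 0 and 6.67, 6.91 and 7.17 at day 3, so that the days overlapped (-0.53 ± 0.21, adjusted p = 0.180).

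LIF and STAT3 genes were lower throughout. All 15 members tested were lower at day 3 (median -0.74), and Osmr, Klf4 and Socs3 fell, beside 2.2% of all genes. The line medians were -0.31 in wild type, the smallest, -0.97 in PKm1KI and -0.98 in PKm2KI. Osmr encodes the oncostatin M receptor, which shares the Il6st chain with the LIF receptor. Its signal was 8.92, 8.89 and 6.71 at day 0 and went undetected on all 3 arrays of day 3, at least 15.4-fold lower (-5.70 ± 0.77, adjusted p = 0.0247). Here "at least" sets the bright day against the detection limit, or the probe's own signal where that is higher, because 0 of 3 dim arrays measured the gene. Such a bound holds for the main processing only. With normexp background correction the changes were smaller than the bounds given here for Osmr (-2.39) and, below, for Bcl11a (2.36). Osmr at day 0 was lowest in PKm2KI, the line that also had the lowest fibroblast marker sum. Socs3, the feedback inhibitor that LIF induces through STAT3, was at 13.48, 14.17 and 14.22 at day 0 and 12.29, 12.47 and 12.31 at day 3, a 3.03-fold fall (-1.60 ± 0.28, adjusted p = 0.0381). The receptor chains themselves were near 0: Lifr was at -0.27 and Il6st at -0.06, both chosen after their values were seen and neither called.

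Socs3 was the called LIF target whose promoter held the STAT motif TTCNNNGAA in the RefSeq window from 250 bases before to 50 after the gene's start (GRCm38.p6), with the letters read on both strands. The motif stands in capitals in the stretch chr11:117969472-117969560, printed in the direction of the gene, which lies on the minus strand.
Socs3: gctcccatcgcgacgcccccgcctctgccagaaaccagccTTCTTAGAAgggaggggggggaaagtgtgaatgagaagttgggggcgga
It began 154 bases before the start. Among 14 members with a promoter in the table, 2 (Cish and Socs3) held it, against 8.30% of 32851 promoters and 8.32% of the promoters of genes tested.

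Formative epiblast genes held some of the largest rises. Of 16 tested, 14 were higher at day 3 and 4 rose, against 56.8% and 1.85% of all genes (median 0.92, and 0.60 to 1.39 over the alternatives). By line the medians were 0.46 in wild type, the smallest, 1.60 in PKm1KI and 1.39 in PKm2KI. Bcl11a, a zinc finger repressor, was undetected (not well above background) on the 3 arrays of day 0, and stood at 7.58, 8.50 and 9.70 in wild type, PKm1KI and PKm2KI at day 3, at least 20.4-fold higher (5.13 ± 0.44, adjusted p = 0.0100). Fgf15, a secreted FGF ligand, went from 6.82, 6.61 and 5.61 to 9.69, 8.78 and 8.58. Every day 3 array thus lay above every day 0 array, and the rise was 6.34-fold (2.67 ± 0.21, adjusted p = 0.00996). Dnmt3b, a DNA methyltransferase that places new methyl groups, rose 4.45-fold from 13.32, 12.54 and 13.21 to 14.96, 15.25 and 15.32 (2.15 ± 0.31, adjusted p = 0.0286). It was the single called gene among 24 of DNA methylation and Polycomb, whose median of 0.09 was like that of all genes and turned negative under 4 alternatives. Fgf5, the classical marker of this state and named after its values were seen, was higher in each line but widely spread (5.31, 3.67 and 7.52 at day 0 and 6.66, 8.16 and 9.84 at day 3, adjusted p = 0.177).

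Calls among signalling genes were few and went in both directions. In the Nodal and TGF-beta list 3 of 27 rose, against 1.85% of all genes (median 0.15, with a changed sign under 4 alternatives). Gdf1, a ligand that pairs with Nodal, was at 9.59, 10.63 and 9.90 at day 0 and 11.98, 12.87 and 12.03 at day 3, and its 3 line changes of 2.39, 2.25 and 2.14 were nearly equal (4.78-fold, 2.26 ± 0.24, adjusted p = 0.0148). These values come from the brighter of 2 probes that disagreed, with changes of 2.26 and 0.26, and their mean (1.26) was not called (adjusted p = 0.0591). Lefty1, which blocks Nodal and is itself induced by it, went from 9.52, 10.24 and 8.67 to 13.66, 14.31 and 11.96 (3.83 ± 0.76, adjusted p = 0.0477). Skil, which encodes a repressor that binds SMAD proteins, rose from 9.88, 9.95 and 10.75 to 11.33, 11.84 and 11.67 (2.68-fold, adjusted p = 0.0481, and 0.0535 under the slide block). The calls thus covered a ligand, on 1 of its probes, an antagonist and an intracellular repressor of the pathway.

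In the BMP list 15 of 19 were lower (median -0.49) and 2 fell, beside 2.2% of all genes that fell. Grem1, a secreted antagonist that binds BMPs, dropped from 10.25, 9.62 and 9.28 to 6.20, 4.59 and 5.95, a 17.6-fold fall (-4.13 ± 0.36, adjusted p = 0.0100). Grem1 is also made by fibroblasts, whose markers fell beside it. Id4, a BMP target that blocks basic helix-loop-helix factors, went from 8.94, 8.56 and 8.01 to 7.89, 7.39 and 6.52 (2.36-fold lower, adjusted p = 0.0423, and 0.0558 under the slide block).

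In the Wnt list, where 13 of 30 were higher, Lef1 and Sfrp2 rose (median -0.04, above 0 under 3 alternatives). Sfrp2, a secreted protein that binds Wnt ligands, went from 7.33, 6.67 and 6.64 to 8.91, 8.73 and 8.05 (3.22-fold, 1.69 ± 0.26, adjusted p = 0.0310). Lef1, the nuclear partner of beta-catenin, was at 4.26, 3.37 and 5.44 at day 0, with PKm1KI not well above background, and at 7.51, 8.80 and 10.51 at day 3. That is 18.1-fold at the detection limits, meaning that the undetected array was set at its limit (4.58 ± 0.56, adjusted p = 0.0191). The order of the lines differed between these genes: at day 3 PKm2KI was the highest for Lef1 and the lowest for Sfrp2.

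Notch and retinoic acid genes fell where they were called. Notch1, the receptor, was at 9.64, 9.13 and 9.95 at day 0 and 7.75, 7.36 and 7.99 at day 3. Its changes of -1.89, -1.77 and -1.97 were close in the 3 lines (3.67-fold lower, -1.87 ± 0.20, adjusted p = 0.0148). Hes1, a repressor that Notch induces, went from 9.32, 9.27 and 8.77 to 7.56, 7.63 and 8.0, with the smallest change in PKm2KI (2.63-fold lower, adjusted p = 0.0445, and 0.0685 under the slide block). The other 11 of the 13 Notch genes tested were not called, and the list's median of 0.20 turned negative under 1 alternative. Cyp26b1, the enzyme that degrades retinoic acid, was at 6.45, 6.34 and 6.49 at day 0 and undetected on all 3 arrays of day 3, at least 4.62-fold lower (-2.70 ± 0.45, adjusted p = 0.0360). With normexp background correction the change was -0.89 and missed the threshold (adjusted p = 0.0528). At day 7 it was at 6.58, 7.60 and 6.01. Among 23 FGF and ERK genes Fgf15 was the single call, and among 16 insulin and IGF genes limma called 0, with 6 at an unadjusted p under 0.05 (Igf2bp1 0.99 ± 0.25, adjusted p = 0.0810).

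**Figure D3:**
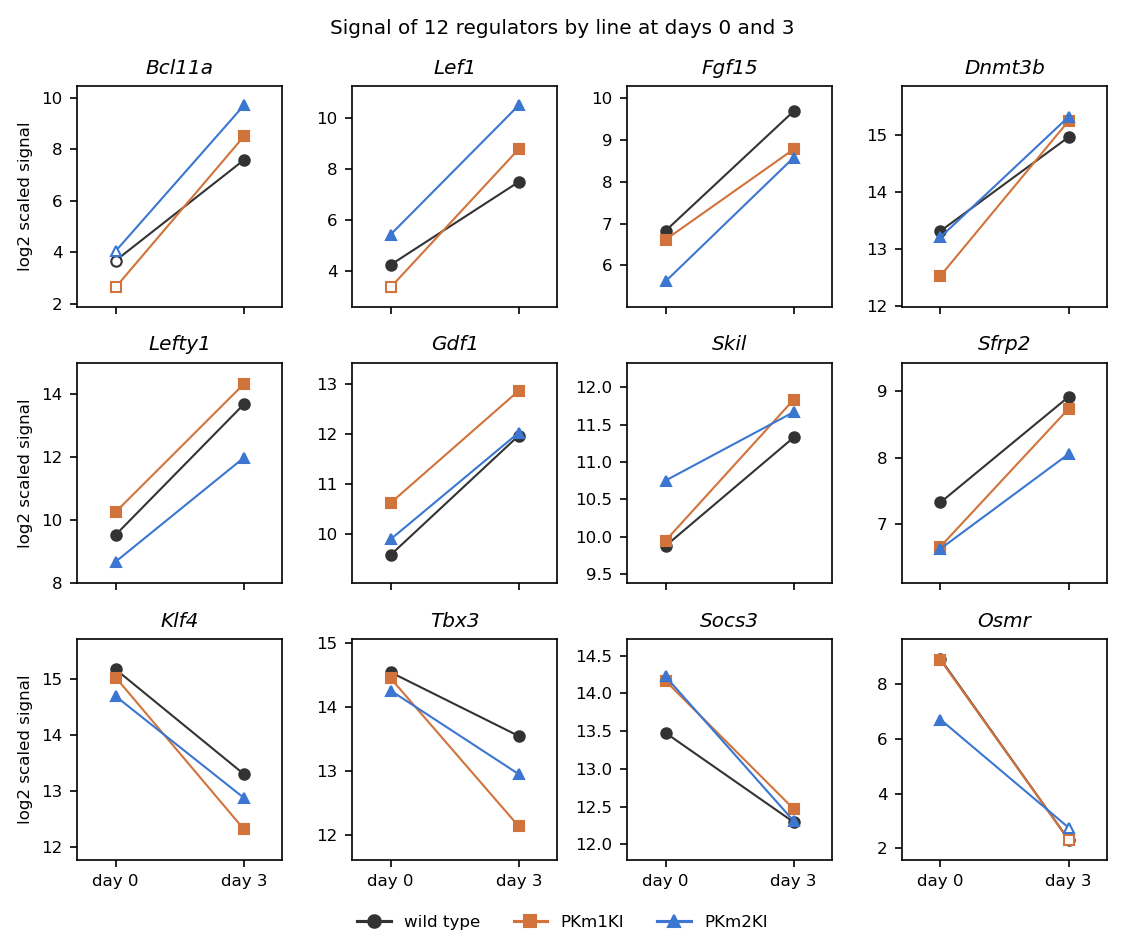
Log2 scaled signal of 12 regulators at days 0 and 3, with 1 line per cell line and open symbols where the probe was not well above background. Each axis has its own range. All 12 were chosen among called genes, each of which moved the same way in the 3 cell lines.

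Of the 42 gene lists, the integrated stress response list held the most genes that fell, 10. This response couples shortage of amino acids and other stresses to the factor ATF4, which induces genes for amino acid supply. All 22 members tested were lower at day 3, with a median of -1.55, and the 10 falls compare with 2.2% of all genes. The line medians were -1.60 in wild type, -2.31 in PKm1KI and -0.99 in PKm2KI. Atf4 itself, named after its values were seen, was at 16.19, 16.77 and 16.65 at day 0 and 15.75, 16.39 and 16.79 at day 3. The days overlapped and it was not called (-0.23 ± 0.21, adjusted p = 0.541).

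Among the members that fell, Cebpb, a leucine zipper factor, went from 11.07, 11.56 and 11.41 to 8.70, 9.15 and 9.27, a fall of like size in each line (4.95-fold, -2.31 ± 0.22, adjusted p = 0.0124). Nupr1, a small chromatin protein induced by stress, went from 13.29, 14.12 and 13.49 to 10.74, 9.90 and 10.91 (8.67-fold, adjusted p = 0.0250). Atf3 went from 12.26, 11.80 and 10.04 to 6.13, 5.23 and 7.00 (38.0-fold, adjusted p = 0.0443, and 0.0592 under the slide block). PKm2KI began lowest and ended highest for this factor, which is also an immediate early gene.

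Fgf21, a secreted metabolic hormone, was at 4.90, 6.70 and 5.50 at day 0 and below detection on all 3 arrays of day 3, at least 2.79-fold lower (-3.13 ± 0.39, adjusted p = 0.0210, but -0.85 and 0.0713 with normexp). Vldlr, a lipoprotein receptor, went from 10.44, 11.23 and 10.32 to 6.40, 6.72 and 7.97 (12.4-fold, adjusted p = 0.0263), with its other probe at -2.11 against -3.63. Slc7a11, the cystine importer, was at 5.04, 5.71 and 4.82 at day 0 and below detection at day 3 (at least 1.96-fold, adjusted p = 0.0181, but a change of -0.74 and 0.0732 with normexp). Fgf21 and Slc7a11 also missed the threshold with a floor of 20 (adjusted p = 0.0807 and 0.0850). Slc7a11 was undetected at day 7 as well, so it passed the filter through day 0 alone. At day 7 Vldlr, Nupr1 and Cebpb differed from day 0 by 0.01, -0.28 and -0.97, none of them called. The other 4 calls, Atf5, Trib3, Cth and Asns, had changes from -2.10 to -1.55.

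The sequence by which ATF4 and its C/EBP partners are known to act, the amino acid response element, was searched for as TGATGNAAT on both strands of the same promoter windows. It was found in 2 of 21 members with a promoter, Fgf21 and Nupr1, both called, against 0.96% of 32851 promoters and 0.65% of the 11928 promoters of genes tested. Both stretches are printed in the direction of their genes, which lie on the minus strand, with the match, read on the opposite strand, in capitals. They lie at chr7:45615582-45615670 and chr7:126625533-126625621 (GRCm38.p6).
Fgf21: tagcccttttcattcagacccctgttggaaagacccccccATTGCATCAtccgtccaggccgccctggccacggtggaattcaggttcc
Nupr1: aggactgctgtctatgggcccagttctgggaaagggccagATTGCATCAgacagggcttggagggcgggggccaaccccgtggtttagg
The 9 letters in capitals are the same in both, and begin 140 bases before the start in Fgf21 and 111 bases before it in Nupr1. A match is a description of these windows and not a measured binding site.

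Amino acid genes outside that list split. Of 22 transporters 2 rose and 2 fell (median 0.09, with the sign turned under 2 alternatives). Slc43a1, a carrier of large neutral amino acids, rose 2.41-fold from 6.51, 7.25 and 6.88 to 7.73, 8.46 and 8.26 (1.27 ± 0.19, adjusted p = 0.0296). Slc7a7, the light chain of an exchanger for cationic amino acids, was already bright at 13.45, 13.68 and 13.27 and reached 14.45, 14.68 and 14.73 (2.23-fold, adjusted p = 0.0424, and 0.0576 under the slide block). Slc6a9, the glycine transporter, fell from 12.17, 12.66 and 11.62 to 9.54, 9.32 and 10.63 (4.98-fold, adjusted p = 0.0424, and 0.0673 under the slide block). Slc1a1, a glutamate transporter, fell from 6.86, 6.19 and 6.15 to 4.73, 3.08 and 4.76, with PKm1KI undetected at day 3 (3.52-fold at the detection limits, adjusted p = 0.0477). Of 20 cytosolic aminoacyl-tRNA synthetase genes limma called 0, with 7 at an unadjusted p under 0.05 (median -0.06, above 0 under 5 alternatives). Hars and Mars1 had the smallest p and opposite signs, at 0.69 ± 0.19 and -0.71 ± 0.21 (adjusted p = 0.0942 and 0.104).

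Of 22 serine and one-carbon genes 1 rose and 4 fell, and 3 of those 4 encode mitochondrial enzymes. The list had a median of 0.06 whose sign turned under 3 alternatives. Aldh1l2, the mitochondrial formyltetrahydrofolate dehydrogenase, dropped from 8.01, 9.05 and 9.06 to 4.34, 4.30 and 6.09 (13.9-fold, -3.80 ± 0.37, adjusted p = 0.0125). Aldh1l1, its cytosolic counterpart, went from 9.34, 10.20 and 10.14 to 7.96, 9.03 and 8.70 (2.51-fold, adjusted p = 0.0425). Pck2, the mitochondrial phosphoenolpyruvate carboxykinase, went from 7.74, 8.35 and 7.65 to 5.50, 5.26 and 6.37 (4.62-fold, adjusted p = 0.0313, and 0.0510 under the slide block). For these genes all arrays of day 3 lay below all of day 0. Mthfd2, a mitochondrial folate enzyme, fell within each line (-1.28, -1.23 and -0.79), while its days overlapped because wild type was lower than the KI lines on both days (2.14-fold, adjusted p = 0.0402, and 0.0630 under the slide block). Ahcy, which clears S-adenosylhomocysteine after methyl transfer, rose from 8.57, 9.56 and 9.18 to 10.16, 10.69 and 10.24 (2.39-fold, adjusted p = 0.0499, and 0.0535 under the slide block).

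**Figure D4:**
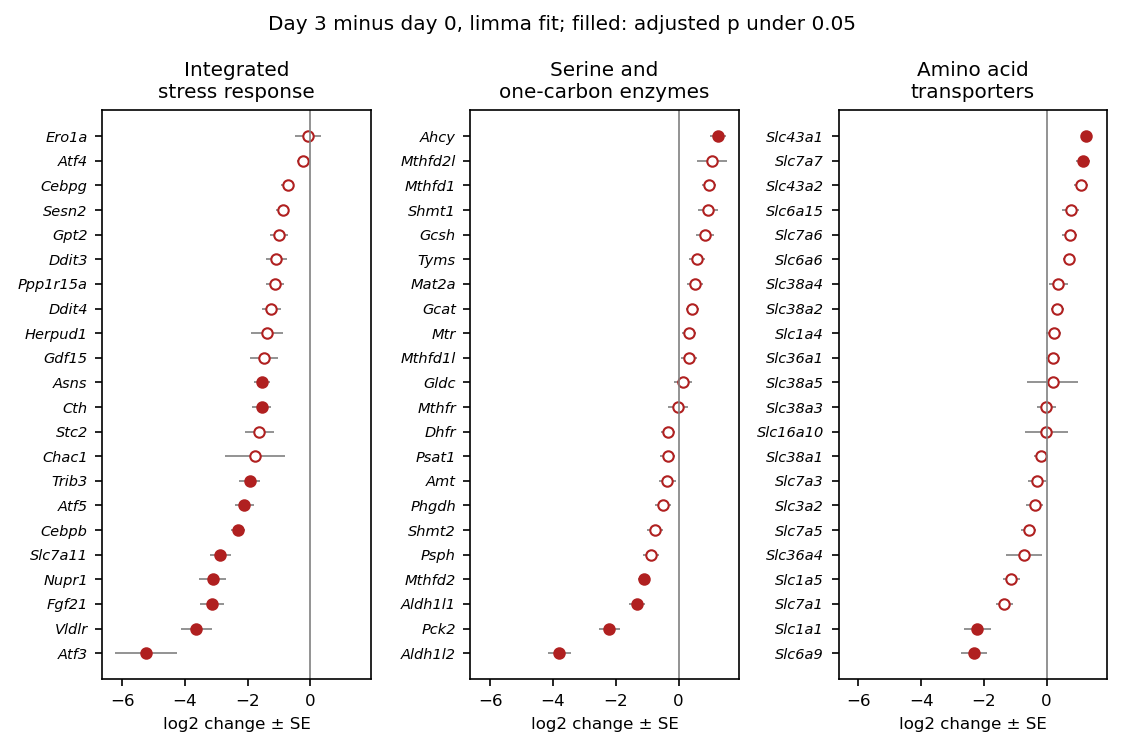
Log2 change with its SE of each gene in 3 lists around amino acid supply, with called genes filled. All 22 integrated stress response genes lie below 0, while transporters and one-carbon genes lie on both sides.

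Other stress lists showed few or 0 calls. The single call among 14 heat shock and metallothionein genes was Hspb8, a small heat shock protein, which went from 11.08, 11.23 and 10.87 to 9.06, 9.04 and 7.71 (5.50-fold lower, -2.46 ± 0.39, adjusted p = 0.0327). Endoplasmic reticulum chaperones were higher in 15 of 17 cases with 0 called in limma (6 at an unadjusted p under 0.05, median 0.49), although Manf, a secreted factor of that compartment, was close at 1.16 ± 0.24 (adjusted p = 0.0501). The antioxidant, p53, and lysosome and autophagy lists had 0 calls in limma of 23, 19 and 20 genes (5, 3 and 3 at an unadjusted p under 0.05), with medians of 0.21, -0.15 and -0.26.

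Genes of growth and nucleotide supply were higher almost throughout, with few passing the test. Of 28 ribosome biogenesis and Myc genes 27 were higher at day 3 (median 0.65), against 56.8% of all genes, and Myc and Nolc1 rose. Myc was at 8.19, 8.41 and 9.93 at day 0 and 10.28, 10.43 and 10.74 at day 3, so that PKm2KI began higher and changed least (3.12-fold, 1.64 ± 0.30, adjusted p = 0.0422, and 0.0696 under the slide block). Nolc1, a phosphoprotein of the nucleolus, went from 12.06, 12.92 and 13.13 to 14.19, 14.42 and 14.04 (2.85-fold, adjusted p = 0.0481, and 0.0631 under the slide block). Its 2 probes changed by 0.51 and 1.51, and their mean was not called (adjusted p = 0.0764). The E-box CACGTG, the sequence bound by MYC with MAX, was in 3 of 22 promoters of this list (Nop2, Pes1 and Wdr43), none of them called, against 7.15% of all promoters and 11.2% of those of genes tested.

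Purine and pyrimidine synthesis genes were higher in 20 of 21 cases (median 0.77) and 2 rose, against 56.8% and 1.85% of all genes. Tk1, the thymidine kinase of dividing cells, went from 11.08, 11.38 and 11.59 to 12.63, 13.07 and 12.77 (2.78-fold, 1.47 ± 0.21, adjusted p = 0.0286). Gmps, the last enzyme of GMP synthesis, rose from 8.65, 9.39 and 9.59 to 10.48, 10.82 and 10.31 (2.51-fold, adjusted p = 0.0423, and 0.0685 under the slide block). Its 3 probes ranged from 0.10 to 1.33, and their mean of 0.59 was not called (adjusted p = 0.126). The exception was Adssl1, the muscle form of adenylosuccinate synthase, which fell from 9.65, 10.09 and 9.47 to 7.82, 7.43 and 6.15 (6.09-fold, adjusted p = 0.0413). Srm, the spermidine synthase, was the call among 10 polyamine genes, with changes of 1.78, 1.27 and 1.13 that took it to 14.78, 14.81 and 14.51 (2.63-fold, adjusted p = 0.0384, and 0.0553 under the slide block).

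Genes of glucose use were mostly higher as well. In the pentose phosphate pathway, which supplies ribose and NADPH, the enzymes of the oxidative branch G6pdx, its retrogene copy G6pd2 and Pgd rose by 2.25-, 2.69- and 2.16-fold (adjusted p = 0.0369, 0.0304 and 0.0428), 3 of 9 genes tested. G6pdx changed by 1.51, 0.98 and 1.03 and reached 12.67, 12.98 and 12.70 at day 3. Probes of G6pd2 may also read G6pdx, which was not tested. Of 23 glycolysis genes 18 were higher (median 0.94). Taken by line, their medians were 1.33 for wild type, 0.78 for PKm1KI and 0.24 for PKm2KI, and Pfkm and Eno3 rose. Pfkm, a phosphofructokinase subunit, went from 10.10, 9.93 and 9.94 to 11.43, 10.89 and 11.38 (2.36-fold, adjusted p = 0.0369). Eno3, an enolase best known from muscle, went from 9.55, 10.42 and 10.36 to 10.97, 11.20 and 11.25 (2.04-fold, adjusted p = 0.0477). Under the slide block G6pdx (0.0515), Pgd (0.0623), Pfkm (0.0510) and Eno3 (0.0700) missed the threshold. Limma called 0 of 18 genes of the hypoxia list (4 at an unadjusted p under 0.05), and its angiogenic ligand gene Vegfa was lower in each line (-2.25 ± 0.54, adjusted p = 0.0726).

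Some fatty acid genes rose beside those of cholesterol synthesis, in which 9 of 25 genes rose and 24 were higher, against 1.85% and 56.8% of all genes. Acaca, the enzyme that commits acetyl-CoA to fatty acid synthesis, went from 10.77, 11.52 and 11.15 to 13.03, 13.27 and 12.88 (3.78-fold, 1.92 ± 0.30, adjusted p = 0.0324), but its 3 probes ranged from 0.76 to 1.92 and their mean was not called (adjusted p = 0.120). The desaturase gene Fads2 was dim at day 0, at 4.81, 5.0 and 4.64, and reached 6.77, 7.05 and 6.07 (3.51-fold, adjusted p = 0.0191). Acsl4, which activates long polyunsaturated acids, rose 2.90-fold, and the desaturase gene Scd2 2.74-fold (adjusted p = 0.0294 and 0.0369, and 0.0506 and 0.0624 under the slide block). Elovl7, an elongase of saturated acids, moved the other way, from 11.27, 11.85 and 10.87 to 9.92, 10.19 and 9.76 (2.59-fold lower, adjusted p = 0.0331, and 0.0578 under the slide block). In all, 4 of 20 fatty acid genes rose, 1 fell and 16 were higher (median 0.60).

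Cell cycle and imprinted genes gave few calls, without a common direction. Among 23 imprinted genes 2 rose and 1 fell, beside 1.85% and 2.2% of all genes. Of 23 cyclin, Cdk and inhibitor genes the inhibitor gene Cdkn2c fell, from 5.98, 5.06 and 5.95 to 4.26, 3.58 and 4.78 with PKm1KI undetected (2.34-fold at the detection limits, adjusted p = 0.0234). With normexp background correction it changed by -0.56 and was not called (adjusted p = 0.0849). Among 23 imprinted genes, which are expressed from 1 parental copy, Nnat rose 5.72-fold from 6.71, 7.37 and 7.46 to 9.29, 10.23 and 9.57 (adjusted p = 0.0310). Snrpn, which encodes a splicing protein, rose 2.06-fold (adjusted p = 0.0492, and 0.0782 under the slide block, or 0.0952 for the mean of its 3 probes). Plagl1, a zinc finger factor, fell 3.18-fold from 12.55, 12.04 and 12.40 to 11.11, 9.91 and 10.96 (adjusted p = 0.0311, and 0.0526 under the slide block), with its 4 probes at -1.68 to -0.23. Piwil2, which acts with piRNAs in germ cells, was the call among 12 germline and 2-cell genes and fell 2.90-fold, from 7.53, 7.43 and 7.85 to 5.66, 6.36 and 6.19 (adjusted p = 0.0415).

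Cell contact genes were mixed as well, with 1 rise and 1 fall among 27. The tight junction gene Cldn5 rose 3.64-fold at the detection limits, from 5.43, 4.43 and 4.62 (PKm1KI undetected) to 7.54, 6.65 and 6.04 (adjusted p = 0.0239, but a change of 0.86 and 0.0562 with normexp). The desmosome gene Dsg2 fell 2.53-fold, from 10.75, 10.07 and 9.81 to 9.02, 8.51 and 9.08 (adjusted p = 0.0423, and 0.0696 under the slide block).

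Germ layer genes gave no call for a rise at day 3. Among 15 genes of the primitive streak and mesoderm, 21 of endoderm and yolk sac and 19 of neural ectoderm, 0 rose and 1 fell in limma (3 and 6 at an unadjusted p under 0.05), and their medians were -0.77 (-1.36 to -0.11 over the alternatives), -0.74 (-1.66 to 0.35) and -0.20. The fall was of Foxc2, a forkhead factor of mesoderm, at 6.11, 5.70 and 5.96 at day 0 and below detection on every array of day 3 (at least 3.26-fold, -3.51 ± 0.23, adjusted p = 0.00572). Foxc2 was undetected at day 7 too, so it passed the filter through day 0 alone. Its day 3 values of 2.32, 2.46 and 2.45 were at or near the floor of the scale. With normexp its change was -0.77 (adjusted p = 0.0463). The nearest to a rise were Hhex, an early endoderm factor, at 0.79 ± 0.23 (adjusted p = 0.0992), and Rax, a factor of the eye field, at 1.80 ± 0.57 (adjusted p = 0.115). Both were higher in all 3 lines with no overlap of the days, which also held for 21.9% of all genes tested. Ncam1, a neural adhesion gene, was lower at -1.61 ± 0.33 (adjusted p = 0.0508), from 10.36, 10.93 and 9.84 to 9.28, 8.49 and 8.52.

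Hox genes give cells their position along the body axis. Of 29 in the list only 17 were tested. Of these 16 were lower and 3 fell, beside 2.2% of all genes that fell. The median was -1.59, between -2.09 and -0.48 over the alternatives, the smallest in size with normexp background correction. Hoxb9 and Hoxc4 passed the filter through their arrays of days 0 and 7 alone. Hoxb9 was at 8.01, 7.05 and 7.40 at day 0 and below detection on all arrays of day 3 (at least 9.63-fold, -4.00 ± 0.36, adjusted p = 0.0112), and at day 7 it stood at 9.33, 7.71 and 6.93. Hoxc4 went from 5.61, 5.96 and 6.81 to below detection (at least 3.75-fold, adjusted p = 0.0477, but a change of -0.82 and 0.0681 with normexp), and was at 5.90, 5.97 and 4.96 at day 7. Day 3 was thus the lowest of the 3 days for both of these genes in every line. Hox and Foxc2 signals in undifferentiated cultures stood beside the fibroblast markers given above, whose part in them was not tested.

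Interferon response genes fell in 6 of 18 cases, against 2.2% of all genes (median -0.88, or -0.37 with normexp background correction, with 13 lower). Isg15, a ubiquitin-like modifier, was at 10.10, 10.42 and 8.92 at day 0 and 7.08, 7.39 and 7.12 at day 3 (6.13-fold, -2.62 ± 0.28, adjusted p = 0.0148, with its other probe at -3.49). Ifi27 fell 63.6-fold, by line changes of -5.93, -7.13 and -4.91 to 5.47, 4.87 and 4.99 (adjusted p = 0.0146). B2m, the light chain of MHC class I, went from 12.92, 12.82 and 11.99 to 9.85, 10.45 and 10.52 (4.94-fold, adjusted p = 0.0314, and 0.0505 under the slide block). For Isg15 the day 3 arrays were close to each other while PKm2KI stood apart at day 0. PKm2KI was the lowest line at day 0 for 15 of 18 genes of this list, against 31.6% of all genes tested. It was likewise lowest for 14 of 17 inflammatory and 11 of 19 fibroblast genes.

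Outside all of these lists, the largest rises by the naming rule included regulators and receptors known from other tissues. Ccno, a cyclin-like protein of cells that make many cilia, went from 6.37, 5.54 and 5.77 to 9.12, 8.76 and 9.44 (9.27-fold, 3.21 ± 0.27, adjusted p = 0.0100) and was at 6.0, 5.93 and 6.72 at day 7. Neurog3, the helix-loop-helix factor of endocrine pancreas, went from 5.91, 4.81 and 5.54, with PKm1KI undetected, to 9.18, 8.99 and 8.36 (10.7-fold at the detection limits, adjusted p = 0.0191). Vrtn, known for its effect on the number of vertebrae, went from 4.16, 5.72 and 5.0 to 7.28, 8.93 and 9.19 (11.4-fold, adjusted p = 0.0458). Wt1, a zinc finger factor of kidney and gonad, was uneven, with changes of 1.41, 5.26 and 3.80 in wild type, PKm1KI and PKm2KI (9.86-fold at the detection limits, adjusted p = 0.0499). It was called in 6 of 12 processing alternatives, with a highest adjusted p of 0.0976, and not with the 6 arrays alone (0.0516).

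Among receptors, Galr2, a receptor for galanin, was undetected at day 0 and at 6.82, 6.67 and 6.16 at day 3 (at least 4.96-fold, adjusted p = 0.0148). Calcr, the calcitonin receptor, went from 6.0, 4.17 and 4.87, with PKm1KI undetected, to 7.80, 7.49 and 8.38 (6.65-fold at the detection limits, adjusted p = 0.0278). Among secreted products Cthrc1, a collagen-like protein, was undetected at day 0 and at 6.36, 7.37 and 7.48 at day 3 (at least 6.86-fold, adjusted p = 0.0339), and it stayed at 7.56, 7.02 and 5.93 at day 7. By line, the 20 largest rises by the naming rule had medians of 3.05, 3.50 and 3.67, with wild type the smallest.

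The largest falls outside the lists were in growth factors, matrix and membrane proteins. Cavin2, a coat protein of caveolae, was at 8.40, 8.45 and 7.35 at day 0 and at the floor of the scale on all 3 arrays of day 3 (at least 14.4-fold, -5.75 ± 0.35, adjusted p = 0.00512). Ereg, a ligand of the EGF receptor, went from 9.05, 8.53 and 6.39 to below detection (at least 13.6-fold, adjusted p = 0.0124). Fgf7, a growth factor that mesenchyme makes for epithelia, went from 9.24, 9.01 and 6.71 to 4.88, 3.80 and 3.86, with both KI lines undetected at day 3 (14.1-fold at the detection limits, adjusted p = 0.0147).

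Gjb2, a gap junction connexin, was at 8.55, 9.45 and 7.75 at day 0 and undetected at day 3 (at least 20.6-fold, adjusted p = 0.0445). The elastic fibre gene Fbln5, at 7.62, 8.87 and 8.68 at day 0, also went undetected (at least 18.0-fold, adjusted p = 0.00996), with wild type and not PKm2KI the lowest line at day 0. Lamb3, a laminin chain of epithelial basement membranes, fell 16.5-fold at the detection limits with line changes of -2.44, -5.58 and -4.12 (adjusted p = 0.0458). Npy, a neuropeptide, went from 7.08, 7.16 and 6.90 to below detection at day 3 and stayed there at day 7 (at least 6.88-fold, adjusted p = 0.0185). Of the 20 largest falls by the naming rule, 17 were lowest in PKm2KI at day 0, by a median of -1.24 against the other lines, beside a fibroblast marker sum of 7591 in that line against 22631 and 21675; the part of those cells was not tested.

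Without the line as a block Tbx3, Socs3, Id4, Sfrp2, Slc43a1, Slc1a1, Ahcy, Aldh1l1, Mthfd2, Hspb8, Myc, Nolc1, Gmps, Adssl1, G6pdx, Eno3, Cdkn2c, Plagl1, Vrtn, Calcr, Gjb2 and Rassf9 were not called, Mthfd2 having the largest adjusted p (0.297). With quantile normalization Dnmt3b, Lefty1, Skil, Hes1, Cyp26b1, Atf3, Slc7a7, Slc1a1, Ahcy, Myc, Nolc1, Pgd, Eno3, Snrpn, Piwil2, Hoxc4, Vrtn, Wt1, Gjb2 and Lamb3 missed the threshold too, with adjusted p up to 0.0792 (Slc1a1). Of these Lefty1, Skil, Slc7a7, Ahcy, Eno3, Snrpn, Vrtn and Wt1 also missed it when scaled to detected probes.

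**Figure D5:**
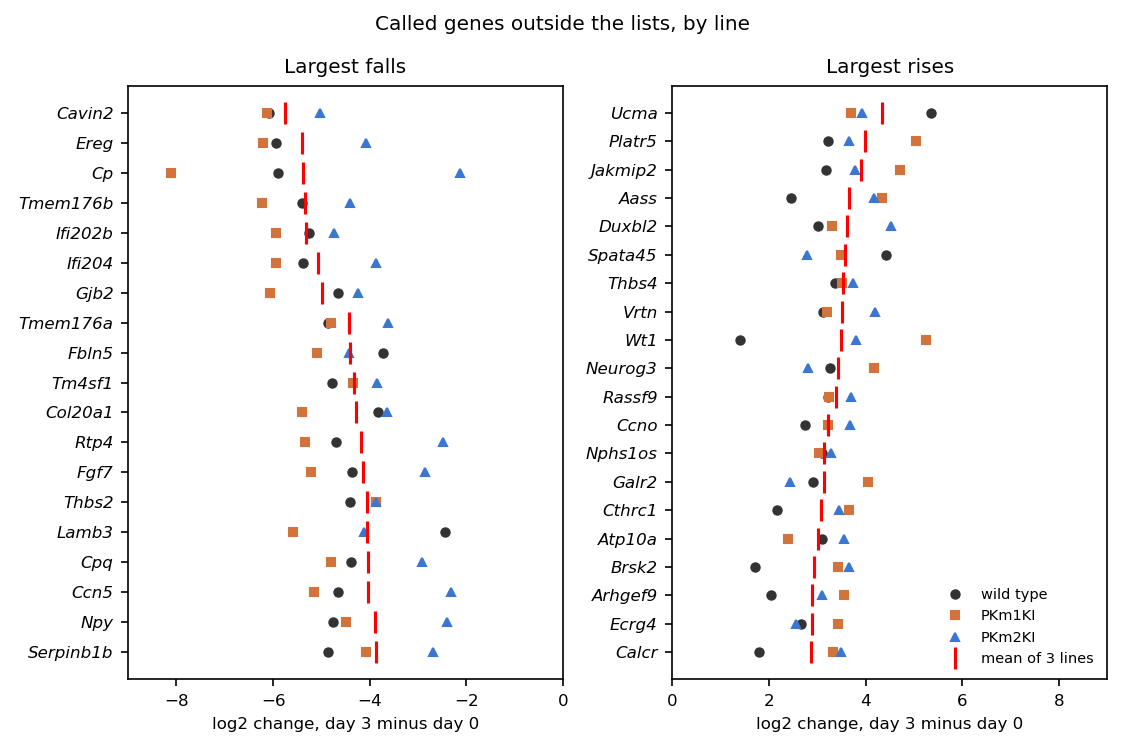
Log2 change, day 3 minus day 0, of 19 of the 20 largest falls and the 20 largest rises among called genes outside the lists, in each line (symbols) with the mean of the 3 lines (red bar). All points of a panel lie on its side of 0 by the choice of genes, which had to move the same way in all 3 lines. PKm2KI is often the smallest of the falls.

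Detection itself switched for some genes. On all 3 arrays of day 3 and on none of day 0, 58 genes were well above background (0.386%), 28 of them called, and 126 showed the reverse (0.839%), 57 of them called. Bcl11a, Ucma, Rassf9, Galr2, Cthrc1 and Atp10a were among the first, and Osmr, Cavin2, Ereg and Gjb2 among the second. Myzap, a component of cardiac and endothelial junctions, was the largest switch on that was not called, since wild type barely moved (0.59, against 5.81 in PKm1KI and 4.67 in PKm2KI, adjusted p = 0.0901).

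The comparison of day 7 with day 0 shares its day 0 arrays with the one above, and the genes given here were chosen by their day 3 values, so the values of the 2 comparisons stand side by side as a description. The genes that rose at day 3 had a median of 0.54 above day 0 at day 7, and those that fell had a median of -0.80. Tk1, Gmps, Snrpn and Slc6a9 differed from day 0 by -0.03, -0.02, -0.03 and -0.07 at day 7. Of the 608 genes called at day 3, only 14 were also called in the same direction at day 7 against day 0. Grem1, Foxc2, Cavin2 and Ereg were among these 14, lower than day 0 at day 7 by limma at -3.55, -2.27, -3.58 and -5.67 (adjusted p = 0.0399, 0.0381, 0.0381 and 0.0381).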

How the data were processed

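Cy3-labelled cRNA from 0.1 µg of total RNA was hybridised to one-colour Agilent mouse arrays, per the labels' protocols. The deposited intensity values are processed signals that the authors made with Agilent Feature Extraction 10.10, per the submitters' processing notes and the file headers, which subtracts background. Of 62976 spots per array, 3671 controls and 133 to 225 spots with a quality flag were left out. Probes were named through the RefSeq accessions of the array annotation (27235 of 55681 probes, 20660 genes).

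Signals were divided by each array's 75th percentile and brought to a common scale, floored at 5 and log2 transformed. Genes were kept if 3 of the 9 arrays or more detected a probe well above background, and the probe with the highest mean stood for its gene. limma 3.58.1 under R 4.3.3, tested on simulated data, fitted line plus day to the 9 arrays together, and p-values were adjusted by Benjamini and Hochberg over 15016 genes. The pairing comes from the cell line. Python 3.11.15, numpy 2.4.6, pandas 2.3.3 and matplotlib 3.10.9 made tables and figures.

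The comparison, the 42 gene lists (793 of 847 genes tested) and 3 marker lists were chosen with earlier results of these data known, so lists are described by counts and medians only. The text draws on up to 6 called members of a list per direction, or the 2 with the smallest p, on the 20 largest called changes per direction outside the lists, and on the 10 largest detection switches. Those 20 had to move the same way in all 3 lines, be well above background on every array of the higher day and have an established symbol. Alternatives were background correction, normalization, the deposited value table, filters, floors, the mean of probes, the 6 arrays alone, no line block, the slide, moderation, and leaving out each line or array. Probes without a symbol were only counted. Some genes that this rule selects are left out of the text and figures.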

Additional observations from a re-analysis of the deposited data

Results flagged for a closer look

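Of 42 gene lists 17 had line medians on both sides of 0, and in 5 of them every line's median was over 0.2 in size, so that 1 line stood opposite to the others. None of these differences was tested, and the other 12 lists had a smaller median in at least 1 line. FGF and ERK signalling had a median of -0.21 in wild type against 0.32 in PKm1KI and 0.26 in PKm2KI. Retinoic acid signalling was at 0.48 in wild type against -1.07 and -0.82 in the KI lines, and germline and 2-cell genes were at 0.28 against -0.25 and -0.79. PKm2KI stood apart for Notch signalling, at -0.77 against 0.41 in wild type and 0.52 in PKm1KI, and for epithelial junctions and keratins, at -0.25 against 0.38 and 0.58. The medians of these 5 lists over all lines also changed sign under at least 1 alternative.

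Among 14480 probes without a gene symbol, which no comparison above used, limma called 333 between days 3 and 0, of which 125 rose and 208 fell, and 2931 had an unadjusted p under 0.05.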

How the results depend on the processing

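Each of the 131 called genes that the naming rule selected kept its direction in every alternative that tested it. For the alternatives that left each change as it was, or left out 1 line, this was fixed in advance. Atf5, Trib3, Cth and Asns, named beyond that rule, were not followed through the alternatives. The count of 608 calls (278 higher, 330 lower) became 929 with normexp background correction (560 higher), 149 with no filter on dim probes (70 higher, 79 lower), 1433 with only the 6 arrays of days 0 and 3 (640 higher, 793 lower, 595 of them shared with the 608) and 1008 with trend and robust moderation (578 higher). Where 1 line or array was left out, calls ranged from 0 to 1260, those higher from 0 to 602 and those lower from 0 to 658. The genes switched on ranged from 76 to 162 and those switched off from 195 to 286 when 1 line was left out, since fewer arrays then have to pass. Without the line as a block, so that the pairing by cell line was ignored, 479 genes were called, 389 of them shared. With the slide as a block 578 were called, 362 of them shared. Of the 131 named genes that were called, 101 were still called with quantile normalization, 98 with the slide block, 69 with a filter on all 6 arrays (the 69 that passed it) and 51 with no filter. The cause of these shifts was not tested. The dimmest genes have only bounds, which hold for the main processing and not with normexp for several of them. With 1 array per line and day no spread within a line was measured.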
